A study of Rattus norvegicus with 12 samples.

Results

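The genes *Ctgf*, *Cyr61* and *Nov* encode the CCN family proteins CCN2, CCN1 and CCN3, and they were chosen by family membership from the transcripts counted in primary adult rat astrocytes (ASTRs). They are 3 of the 17941 genes counted and 3 of the 9394 genes that passed the filter on low counts. The CCN family has 6 members in mammals. The other 3, *Wisp1*, *Wisp2* and *Wisp3*, could not be paired with an identifier and were not analysed here. The tables list genes by Ensembl identifier, and the members are ENSRNOG00000015036 (*Ctgf*, connective tissue growth factor), ENSRNOG00000014350 (*Cyr61*, cysteine-rich angiogenic inducer) and ENSRNOG00000008697 (*Nov*, nephroblastoma overexpressed).

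CCN proteins are secreted, cysteine-rich matricellular proteins. They bind integrins, heparan sulfate proteoglycans and growth factors in the extracellular matrix (ECM) and modulate adhesion, migration and growth factor signaling rather than building the matrix itself. *Ctgf* and *Cyr61* are classical target genes of the transcriptional co-activators YAP and TAZ, which act through TEAD factors and respond to cell spreading, stiffness and serum, and *Ctgf* is also induced by TGF-beta. *Nov* counteracts *Ctgf* in several tissues. In the central nervous system, CCN2 is known as an inhibitor of oligodendrocyte maturation and CCN3 as a factor that supports it.

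RNA came from young adult female Wistar rats. GmASTRs were grown from the cerebral cortex after removal of the meninges. WmASTRs were grown from the rest of the brain without the amygdala, that is, corpus callosum and other white matter (WM) tracts together with hippocampus, thalamus and basal ganglia, so that they are mainly WM ASTRs with some from deep grey matter (GM). There were 6 independent culture preparations of each, and each animal gave both kinds, prepared side by side. All cells grew untreated for 20 days in serum-containing medium on poly-L-lysine and were passaged at least once with trypsin. The comparison of gmASTRs with wmASTRs asks whether transcription differs with the brain region from which the ASTRs were taken. A bulk count does not tell fewer cells of a type from less RNA per cell.

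The 3′ libraries held 4920488 to 6356487 counts on genes in gmASTRs and 5363330 to 7207118 in wmASTRs, and each detected 11115 to 12818 genes. In a library of this depth, 3 counts were worth 0.416 to 0.610 CPM, the count of a gene per 1000000 counts of its library. In paired values below, that of gmASTRs stands first. *Gja1*, which encodes the ASTR gap junction protein connexin 43, was abundant in gmASTRs and wmASTRs (4789 ± 627 and 4366 ± 1241 CPM, SD, n = 6), as was *Vim* (2884 ± 236 and 2353 ± 96.5 CPM). *Gfap* had no count in any gmASTR library, which allows at most 0.472 to 0.610 CPM by counting error, and its mean in wmASTRs was 3.29 CPM. *Aqp4* had means of 0.200 and 3.69 CPM, and its wmASTR libraries (2.36 to 5.10 CPM) lay above its gmASTR libraries. Among these libraries, gmASTR replicate 5 and wmASTR replicate 4 stood apart in several of the values given below.

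The start regions of *Ctgf* and *Cyr61* are shown because both genes were higher in wmASTRs and are classical YAP and TAZ targets, and the TEAD motif GGAATG is the sequence through which YAP and TAZ reach their target genes. The sequences are the 250 bases before the annotated start in RefSeq (build GRCr8), chr1:22624615-22624864 for *Ctgf* and chr2:237225690-237225939 for *Cyr61*, both on the minus strand and immediately upstream of the annotated start. They are written 5′ to 3′ with every GGAATG, or its reverse complement CATTCC, in capitals.
Ctgf: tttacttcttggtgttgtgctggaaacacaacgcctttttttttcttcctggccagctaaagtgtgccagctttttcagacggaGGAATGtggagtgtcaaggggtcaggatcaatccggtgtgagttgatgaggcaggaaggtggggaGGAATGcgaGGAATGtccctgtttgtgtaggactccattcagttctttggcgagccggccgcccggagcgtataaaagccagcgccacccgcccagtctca
Cyr61: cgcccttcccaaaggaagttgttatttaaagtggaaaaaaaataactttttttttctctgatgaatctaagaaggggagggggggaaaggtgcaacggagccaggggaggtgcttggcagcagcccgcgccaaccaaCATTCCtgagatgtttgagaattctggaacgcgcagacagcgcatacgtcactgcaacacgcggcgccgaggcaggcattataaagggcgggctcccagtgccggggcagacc
In the *Ctgf* window GGAATG occurred 3 times, all on the strand of the gene, at 166 to 161, 101 to 96 and 92 to 87 bases before the start. The *Cyr61* window held a single match, on the opposite strand, at 113 to 108 bases before the start. Of 33469 rat promoter windows of the same length, 12.1% held at least 1 such motif on either strand and 0.0807% (27 windows) held at least 3. The SMAD motif CAGAC, the short sequence bound by the transcription factors of the TGF-beta pathway, occurred once before *Ctgf* (174 to 170) and 2 times before *Cyr61* (80 to 76 and 6 to 2). It was found in 42.9% of all windows at least once and in 11.5% at least 2 times. The AP-1 motif TGANTCA and the CArG box, the site of serum response factor, were not found in either window, and 6.34% and 1.50% of all windows held them. None of these matches overlapped another. A match describes the letters of the window and is not a measurement of binding.

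Transcripts of *Ctgf* were more abundant in wmASTRs. Its level ranged from 2260 to 5042 CPM in gmASTRs, with a median of 3316, and from 7168 to 14978 CPM in wmASTRs, with a median of 10909. The groups did not overlap, as the lowest wmASTR library lay 2125 CPM above the highest gmASTR library. The means were 3496 ± 1184 and 11181 ± 2552 CPM (SD, n = 6), and the fitted level was 3.33-fold higher in wmASTRs (log2 fold change of gmASTRs over wmASTRs, log2FC, -1.73, SE 0.21, edgeR quasi-likelihood test, FDR = 5.27e-05). The highest gmASTR library was replicate 5, and the highest wmASTR library was replicate 4.

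*Ctgf* was among the most abundant transcripts of these cells. It ranked between 4 and 9 among all genes in each wmASTR library and between 13 and 44 in each gmASTR library. It took 0.717% to 1.50% of all counts in wmASTRs and 0.226% to 0.504% in gmASTRs. The difference between the group means, 7685 CPM, was rank 2 among the gains in wmASTRs of the 17941 genes counted. By fold it was rank 102 among the 628 genes called higher in wmASTRs, and by mean level rank 3 among them.

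*Cyr61* followed the same direction at a lower level. In gmASTRs it ranged from 381 to 989 CPM with a median of 646, and in wmASTRs from 1243 to 1819 CPM with a median of 1558. Again no library of one group reached the other, and the gap was 255 CPM. The means were 674 ± 245 and 1529 ± 263 CPM (SD, n = 6), and the fitted level was 2.36-fold higher in wmASTRs (log2FC -1.24, SE 0.20, edgeR quasi-likelihood test, FDR = 0.000623). Within a library *Cyr61* ranked 62 to 94 in wmASTRs and 115 to 439 in gmASTRs. The difference of 855 CPM between the means was rank 22 of all genes in favour of wmASTRs.

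*Nov* was the least abundant member and also had its higher level in wmASTRs. In gmASTRs it ranged from 10.6 to 101 CPM with a median of 84.6, and in wmASTRs from 117 to 312 CPM with a median of 138. The groups did not overlap, but the gap was 15.7 CPM. The low end was gmASTR replicate 5, in which 56 counts were found, while the other 5 gmASTR libraries held 67.2 to 101 CPM. At the high end, wmASTR replicate 4 (312 CPM) lay above the second highest library, replicate 6, with 199 CPM. The means were 72.5 ± 32.2 and 173 ± 73.5 CPM (SD, n = 6), and the fitted level was 2.54-fold higher in wmASTRs (log2FC -1.34, SE 0.34, edgeR quasi-likelihood test, FDR = 0.0139). Without gmASTR replicate 5 the log2FC of *Nov* was -1.13 (adjusted p = 0.00121), without wmASTR replicate 4 it was -1.09 (adjusted p = 0.0417), and without both it was -0.87 (adjusted p = 0.000760).

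**Figure D1:**
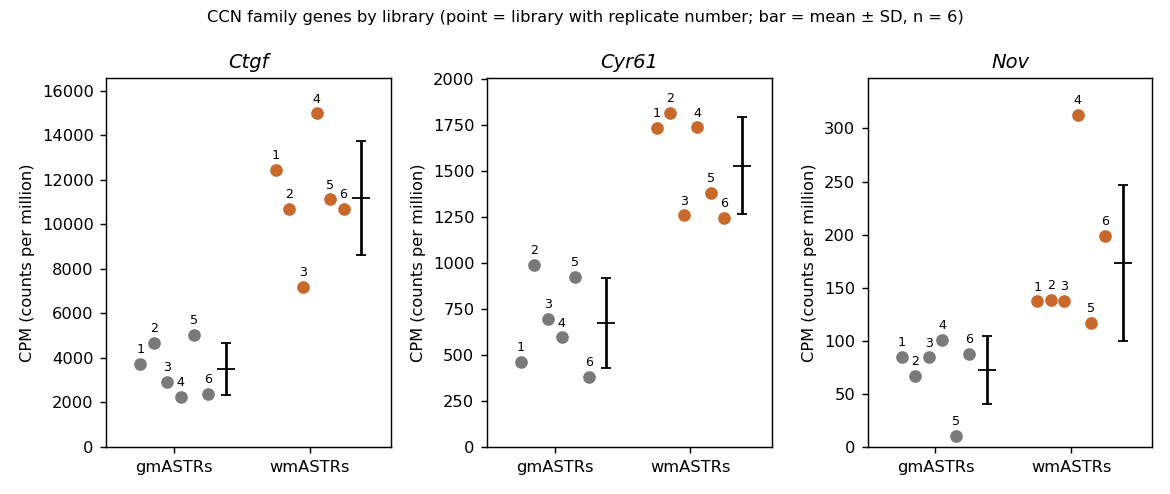
Levels of *Ctgf*, *Cyr61* and *Nov* in CPM on the vertical axis, by group on the horizontal axis. Each point is a library with its replicate number, and the bar is the mean ± SD of 6 libraries. In each panel the 6 wmASTR libraries lie above the 6 gmASTR libraries, and gmASTR replicate 5 is the lowest point for *Nov* (10.6 CPM) but the highest gmASTR point for *Ctgf* (5042 CPM).

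All 3 members thus had an FDR under 0.05 with the higher level in wmASTRs. Over the 9394 genes tested, 12.3% were called in either direction at this threshold, 6.69% with the higher level in wmASTRs (628 genes) and 5.64% with the higher level in gmASTRs (530 genes). Without scaling beyond the library totals, 691 genes were called higher in gmASTRs and 533 in wmASTRs. At an FDR under 0.01, which 5.89% of genes passed, *Ctgf* and *Cyr61* remained and *Nov* did not. The complete separation of 6 wmASTR above 6 gmASTR libraries was shared by 3.07% of genes, and a complete separation in either direction by 5.76%. An exact two-sided permutation test of the mean log2 CPM gave p = 0.00216 for each member, which is the smallest value that the divisions of 12 libraries into 6 and 6 allow. These divisions take the libraries as unpaired, because the labels do not say which cultures share an animal. The symbols of all 3 members come from the list of matrix genes that the study drew up for differing between these same libraries. Their number and shared direction are therefore not evidence independent of that choice.

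The spread between libraries differed among the members. The coefficient of variation of *Ctgf* was 33.9% in gmASTRs and 22.8% in wmASTRs, and that of *Cyr61* was 36.3% and 17.2%. That of *Nov* was 44.4% and 42.4%, and each value rested on 1 library. Left out after the values were seen, gmASTR replicate 5 took the coefficient of *Nov* in gmASTRs to 14.1%, below those of *Cyr61* and *Ctgf* (31.9% for *Ctgf*) without the same library. Without wmASTR replicate 4 the coefficients in wmASTRs were 21.3% for *Nov*, 18.7% for *Ctgf* and 18.2% for *Cyr61*. The smallest count of any member in any library was 56 for *Nov*, 2267 for *Cyr61* and 11696 for *Ctgf*.

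The order of the levels was the same in every library, *Ctgf* above *Cyr61* above *Nov*. In this 3′ assay a transcript gives reads at its end, so that a level does not grow with transcript length. The lowest *Ctgf* value of any library (2260 CPM) exceeded the highest *Cyr61* value (1819 CPM), and the lowest *Cyr61* value (381 CPM) exceeded the highest *Nov* value (312 CPM). Both neighbours in the order were thus separated beyond the spread of the libraries, even across the groups. The summed level of the members was 0.283% to 0.598% of all counts in gmASTRs and 0.856% to 1.70% in wmASTRs.

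To compare the members with each other, the ratio of their counts was taken within each library, which is free of library size and scaling. *Ctgf* was 3.79 to 8.08 times as abundant as *Cyr61* in gmASTRs, with a mean ratio of 5.41 ± 1.57, and 5.69 to 8.62 times in wmASTRs, with a mean of 7.34 ± 1.31 (SD, n = 6). On the log2 scale the ratio was lower in gmASTRs by a difference of -0.47 (SE 0.20, exact two-sided permutation test, p = 0.0476, adjusted over 3 pairs 0.143). The difference did not pass the correction, and the groups overlapped, mainly through gmASTR replicate 1 with a ratio of 8.08. Without this library, picked out after the values were seen, the log2 difference was -0.59 with an adjusted p of 0.0455. Of the 12 runs with 1 library left out, only this one had an adjusted p under 0.05, and the highest was 0.273.

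The ratio of *Ctgf* to *Nov* had a median of 39.1 in gmASTRs (22.4 to 471) and of 65.5 in wmASTRs (47.9 to 95.3). The log2 difference was -0.26 (SE 0.68, exact two-sided permutation test, p = 0.771, adjusted 0.861). For *Cyr61* to *Nov* the median was 7.07 in gmASTRs (4.37 to 86.3) and 10.5 in wmASTRs (5.56 to 13.1), and the log2 difference was 0.20 (SE 0.69, exact two-sided permutation test, p = 0.861, adjusted 0.861). Neither difference exceeded the spread, and gmASTR replicate 5 held the highest ratio in both. Without it the log2 difference of *Ctgf* to *Nov* was -0.88 (adjusted p = 0.0779) and that of *Cyr61* to *Nov* turned to -0.40 (adjusted p = 0.301). With wmASTR replicate 4 left out as well, these were -0.98 (adjusted p = 0.0952) and -0.55 (adjusted p = 0.183).

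**Figure D2:**
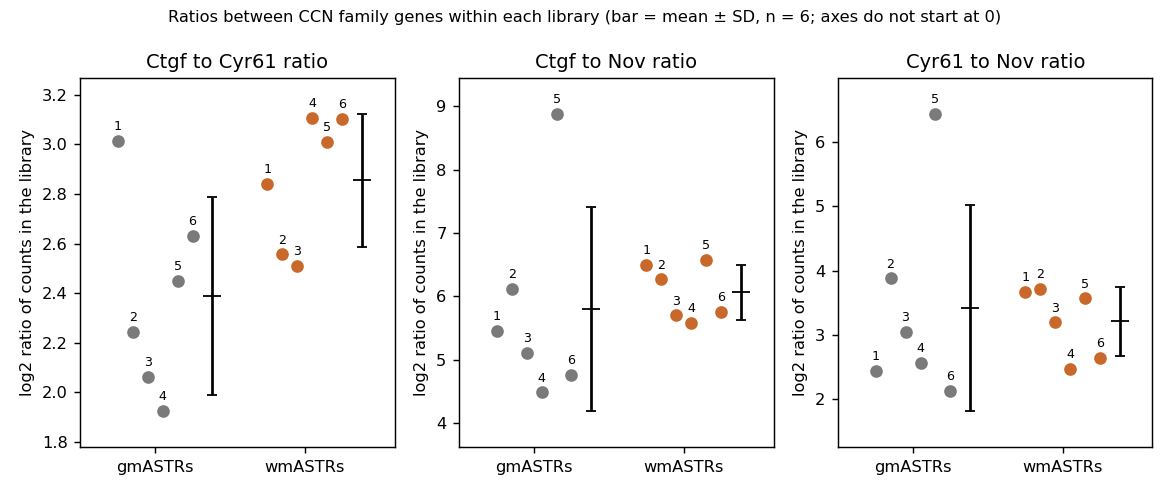
Ratios between the members within each library on a log2 scale, by group, with replicate numbers and mean ± SD (n = 6). The axes do not start at 0. The ratios to *Nov* in gmASTR replicate 5, which are 471 for *Ctgf* and 86.3 for *Cyr61* before taking logs, lie above all other libraries, and the *Ctgf* to *Cyr61* ratios of the groups overlap.

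Within a group, the members did not vary as 1 unit. In gmASTRs the libraries with the highest *Ctgf* had the lowest *Nov*. Replicate 4 had the lowest *Ctgf* (2260 CPM) and the highest *Nov* (101 CPM), and replicate 5 the reverse (5042 and 10.6 CPM). Over the 6 gmASTR libraries Pearson's r of log2 CPM was -0.69 (exact permutation p = 0.00278, adjusted over 6 relations 0.0167) and Spearman's rho was -0.94 (exact permutation p = 0.0167, adjusted 0.1). The rank form did not pass the correction. Without replicates 4 and 5, those farthest from the median of *Ctgf*, r was -0.83, and without replicate 5 alone, left out after the values were seen, it was -0.88. With 5 libraries no permutation p below 0.0167 is possible. In wmASTRs the same relation was r = 0.56 (exact permutation p = 0.253, adjusted 0.322) and rho = 0.086 (p = 0.919, adjusted 0.919), and r was -0.35 without replicates 3 and 4. Without replicate 4 alone it was 0.0080, and with any other single library left out it was 0.57 to 0.71. Whether the relation differs between the groups was not tested.

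*Ctgf* and *Cyr61* had positive coefficients in both groups, which did not pass the test. In gmASTRs r was 0.71 (exact permutation p = 0.139, adjusted 0.322) with a rho of 0.66 (p = 0.175, adjusted 0.35), and r was 0.72 without replicates 4 and 5. In wmASTRs r was 0.65 (exact permutation p = 0.174, adjusted 0.322) with a rho of 0.6 (p = 0.242, adjusted 0.363), and r was 0.40 without replicates 3 and 4. For *Cyr61* and *Nov*, r was -0.56 in gmASTRs (exact permutation p = 0.268, adjusted 0.322) with a rho of -0.77 (p = 0.103, adjusted 0.308), and -0.80 without replicates 2 and 6. In wmASTRs it was 0.19 (exact permutation p = 0.772, adjusted 0.772) with a rho of 0.14 (p = 0.803, adjusted 0.919), and 0.42 without replicates 3 and 6. Without replicate 4 alone r was -0.35, and with any other single library left out it was 0.084 to 0.41.

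**Figure D3:**
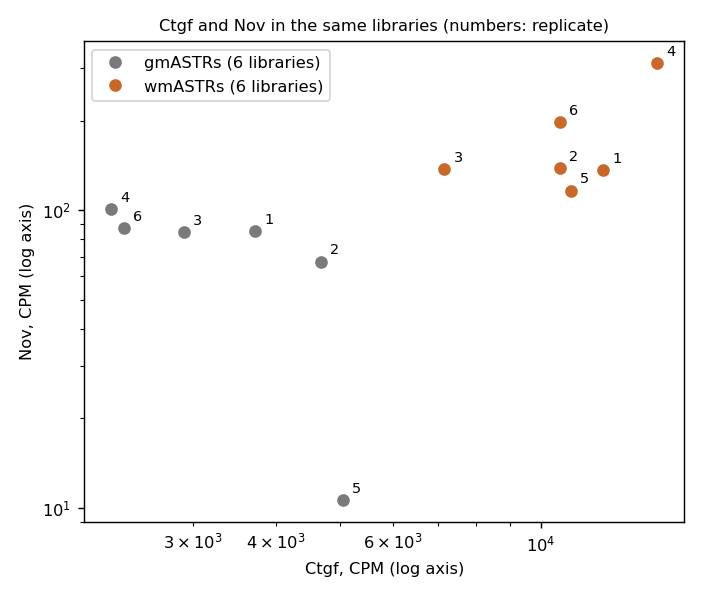
*Nov* against *Ctgf* in the same libraries, both in CPM on log axes, with replicate numbers. Among the 6 gmASTR libraries *Nov* is lower where *Ctgf* is higher (r = -0.69), and the 6 wmASTR libraries lie above and to the right with no such order.

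Genes whose levels across libraries were most like those of each member were sought among the 5341 genes with a mean of at least 20 CPM, of which 710 have a symbol and could be named. The likeness is Pearson's r of log2(CPM + 1), a description over 12 libraries of which 6 belong to each group, so that a shared difference between the groups raises it. For *Ctgf* the closest of all genes was *Inhba*, which encodes the activin A subunit (r = 0.98). Next among those named here were *Ppp1r14a* (r = 0.97), an inhibitor of myosin phosphatase, *Eln* (r = 0.97), which encodes elastin, *Grem1* (r = 0.96), a BMP antagonist, and *Itga1* (r = 0.96), a collagen-binding integrin subunit. *Inhba* had 48.9 ± 22.9 and 196 ± 36.7 CPM (SD, n = 6, log2FC -2.06, FDR = 8.24e-05) and *Grem1* 363 ± 277 and 3385 ± 1528 CPM (log2FC -3.28, FDR = 0.000152).

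*Inhba* remained close to *Ctgf* after the group means were subtracted (r = 0.90). Other genes named here in that form were *Sulf1* (r = 0.86), which trims sulfate groups from heparan sulfate, *Tinagl1* (r = 0.86), a matricellular protein, *Adm* (r = 0.86), which encodes adrenomedullin, and *Ppp1r14a* (r = 0.85). These genes were picked for the highest r, so their values describe the choice. Without gmASTR replicate 5 and wmASTR replicate 4 they were 0.76 to 0.88.

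Among the named genes, *Cyr61* was closest to *Igfbp7* (r = 0.95, rank 3 of all genes), a secreted binding protein of the insulin-like growth factor (IGF) family, followed by *Hspa1b* (r = 0.93), an inducible heat shock protein. *Ctgf* was the third named gene (r = 0.92, rank 11 of all genes), before *Ltbp2* (r = 0.89), a matrix protein of the LTBP family, and *Dkk3* (r = 0.89). With group means subtracted, *Igfbp7* was again first of the named genes (r = 0.85, rank 8 of all genes), followed by *Fyn* and *Tfap2b* (both r = 0.81), *Cd44* (r = 0.75) and *Hspa1b* (r = 0.74). The r of *Ctgf* with *Cyr61* was then 0.68. *Hspa1b* had 82.6 ± 40.0 and 322 ± 43.3 CPM (SD, n = 6, log2FC -2.01, FDR = 5.02e-05).

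For *Nov*, over 12 libraries *Cspg4*, the NG2 proteoglycan of oligodendrocyte progenitors and pericytes (r = 0.86), and *Vcan*, which encodes the proteoglycan versican (r = 0.82), led the named genes. *Tnc* (r = 0.76), *Tf* (r = 0.75) and *Mgp* (r = 0.75), which encode tenascin C, transferrin and matrix Gla protein, followed. *Ctgf* reached r = 0.47 and *Cyr61* r = 0.38 with *Nov*, but 0.76 and 0.66 without gmASTR replicate 5. Without both that library and wmASTR replicate 4, *Cspg4* stood at 0.69, *Vcan* at 0.57 and *Mgp* at 0.87. After subtraction of the group means *Ctgf* and *Cyr61* had r = -0.39 and -0.43 with *Nov* (0.13 and -0.099 without gmASTR replicate 5, -0.60 and -0.53 without wmASTR replicate 4, and -0.43 and -0.45 without both). The closest named genes in that form were *Ephb3* (r = 0.91), *Olfml3* (r = 0.89), *Tubb5* (r = 0.89), *Cbx3* (r = 0.88) and *Gucy1a3* (r = 0.87). Without gmASTR replicate 5 these 5 values fell to between 0.41 (*Tubb5*) and 0.79 (*Olfml3*), and without wmASTR replicate 4 as well they lay between 0.091 (*Cbx3*) and 0.66 (*Olfml3*). All 5 had the higher mean in gmASTRs, as 92.2% of tested genes with a symbol have. *Ephb3*, for example, had 105 ± 41.0 and 55.5 ± 10.1 CPM (SD, n = 6, log2FC 0.84, FDR = 0.0189). Of the 14 genes named for likeness over 12 libraries that are not members, 10 matched a RefSeq promoter window, and 0 of the 10 held GGAATG, against 12.1% of all windows.

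The genes around the CCN family were counted from lists of pathway genes. The available symbols lean to genes with the higher level in gmASTRs: of the 1585 genes tested with a symbol, 92.2% had a log2FC above 0, 28.9% were called higher in gmASTRs and 6.75% in wmASTRs, and their median log2FC was 0.65 against 0.02 over all genes tested. The symbols of genes higher in wmASTRs come mostly from lists that the study chose on these libraries. The counts below therefore describe the named genes and not the pathways.

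Of 24 target genes of YAP, TAZ and TEAD, 5 had a symbol and were tested, and 2 were called higher in wmASTRs and 1 in gmASTRs (median log2FC 0.47). Without wmASTR replicate 4, and also without scaling, 2 were called higher in gmASTRs. *Ankrd1*, a target that is often read together with *Ctgf* and *Cyr61*, was 5.32-fold higher in wmASTRs, with 32.3 ± 22.6 and 164 ± 74.2 CPM and no overlap (SD, n = 6, log2FC -2.41, SE 0.41, FDR = 0.000785). *Tgfb2*, a TGF-beta ligand that is also a YAP target, had 210 ± 78.1 and 512 ± 102 CPM (log2FC -1.34, SE 0.21, FDR = 0.000474). *Birc5*, the cell division gene that encodes survivin, went the other way with 124 ± 52.0 and 50.1 ± 21.6 CPM (log2FC 1.24, SE 0.27, FDR = 0.00540). *Dock5* (log2FC 0.50, FDR = 0.0578) and *Rbms3* (log2FC 0.47, FDR = 0.718) did not pass. Of 18 components of the Hippo pathway, which restrains YAP and TAZ, 2 were tested, the TEAD factor genes *Tead2* (log2FC 0.64, FDR = 0.382) and *Tead4* (log2FC 0.62, FDR = 0.102), and neither passed. *Yap1* was outside the filtered table, with means of 1.58 and 0.715 CPM.

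Among 16 TGF-beta ligands, receptors, latent TGF-beta binding proteins and SMADs, 6 were tested, and 2 were called in each direction (median log2FC 0.62). Only 1 was called higher in gmASTRs when wmASTR replicate 4 was left out, and also when the replicate number was fitted as a block. The ligand gene *Tgfb2*, called higher in wmASTRs, was counted with the YAP targets and not in this list. The latent TGF-beta binding proteins divided. *Ltbp1* had 4.59 ± 4.54 and 60.7 ± 41.7 CPM (SD, n = 6, log2FC -3.81, FDR = 0.000590), and *Ltbp2* had 76.8 ± 33.7 and 191 ± 25.1 CPM (log2FC -1.37, FDR = 0.000667), while *Ltbp3* was higher in gmASTRs (log2FC 0.67, FDR = 0.0234). *Smad3*, which carries the TGF-beta signal to the nucleus, was also higher in gmASTRs, with 49.6 ± 9.52 and 25.9 ± 4.39 CPM and no overlap (log2FC 0.87, FDR = 0.00207). The ligand *Tgfb1* (log2FC 0.65, FDR = 0.469) and the receptor *Tgfbr2* (log2FC 0.59, FDR = 0.272) did not pass.

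Of 15 TGF-beta target genes, 6 were tested, and 5 were called higher in wmASTRs and 1 in gmASTRs (median log2FC -1.01). *Postn*, which encodes the matricellular protein periostin, had 19.2 ± 6.63 and 146 ± 59.9 CPM (SD, n = 6, log2FC -3.00, FDR = 8.27e-06). *Eln* had 69.9 ± 32.7 and 372 ± 132 CPM (log2FC -2.47, FDR = 5.25e-05), and *Ltbp2* is given above. *Timp1* (log2FC -0.65, FDR = 0.00576) and *Fn1* (log2FC -0.56, FDR = 0.0162) were higher in wmASTRs by less. The fibrillar collagen gene *Col3a1* was higher in gmASTRs (log2FC 0.62, FDR = 0.0109). Most of these symbols come from the study's choice on these libraries, so the shared direction is not independent evidence of it.

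In the lists of SRF and MRTF targets and of immediate early genes, through which serum also acts on *Cyr61* and *Ctgf*, 1 gene each of 15 could be tested. The smooth muscle actin gene *Actg2* was higher in gmASTRs, with 919 ± 380 and 362 ± 135 CPM (SD, n = 6, log2FC 1.27, FDR = 0.00541). *Atf3* had 7.28 ± 5.42 and 3.61 ± 2.31 CPM (log2FC 0.92, FDR = 0.320).

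Of 20 receptors and binding partners of CCN proteins, 3 were tested, and 1 was called in each direction. With gmASTR replicate 5 left out, or with the replicate number fitted as a block, 2 were called higher in wmASTRs. *Sdc4*, the heparan sulfate proteoglycan syndecan 4 that serves as a co-receptor, was higher in gmASTRs without overlap, with 1254 ± 195 and 722 ± 163 CPM (SD, n = 6, log2FC 0.73, SE 0.14, FDR = 0.00152). *Bmp4*, a ligand that *Ctgf* protein can bind, had 39.8 ± 23.8 and 66.7 ± 12.8 CPM (log2FC -0.79, SE 0.29, FDR = 0.0868), and *Fn1* is given above. Among the IGF binding proteins, which share their N-terminal domain with CCN proteins, 4 of 6 were tested, and 3 were higher in gmASTRs and 1 in wmASTRs. *Igfbp2* had 6928 ± 1575 and 2910 ± 1358 CPM (log2FC 1.21, FDR = 0.00839), *Igfbp4* 165 ± 90.7 and 26.5 ± 27.4 CPM (log2FC 2.57, FDR = 0.00841) and *Igfbp6* 106 ± 56.7 and 26.4 ± 10.6 CPM (log2FC 1.92, FDR = 0.00113). *Igfbp7* had its higher level in wmASTRs like the CCN members, with 242 ± 106 and 543 ± 119 CPM (log2FC -1.22, FDR = 0.00171).

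**Figure D4:**
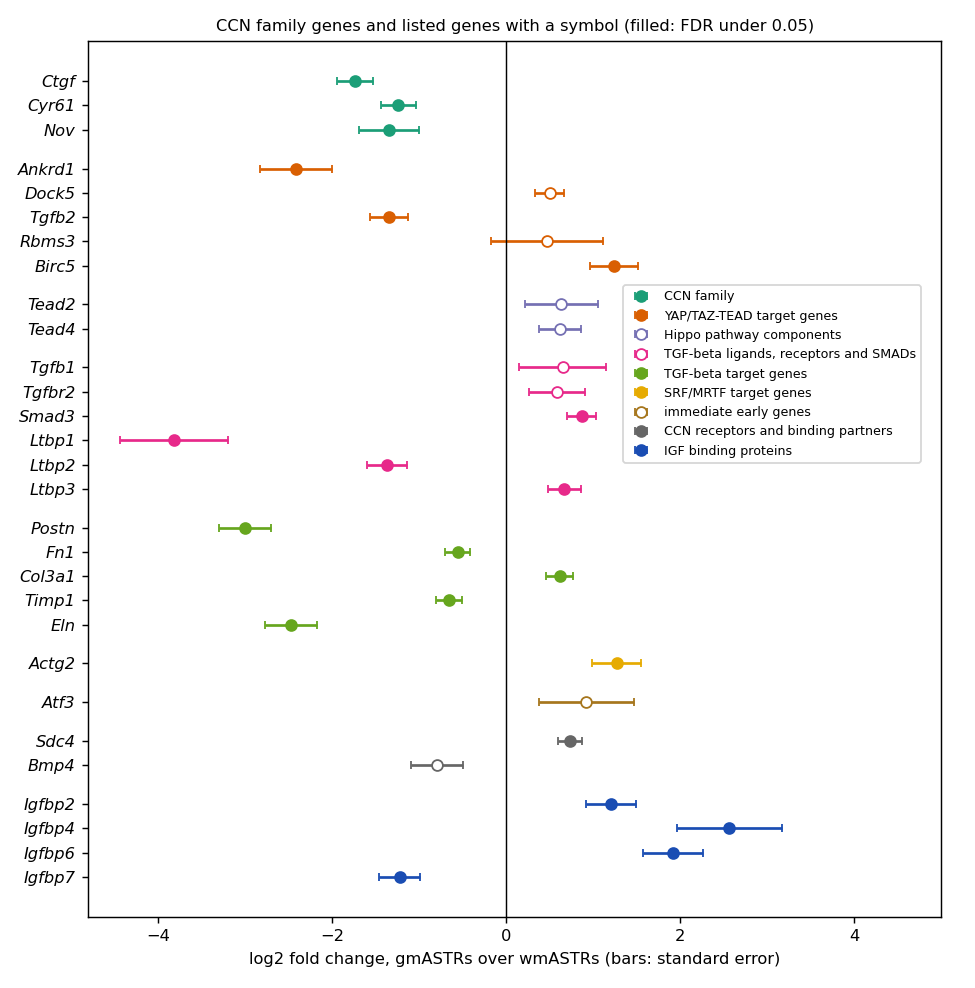
Log2 fold change of gmASTRs over wmASTRs with its standard error for the CCN members and for each tested gene of the pathway lists, coloured by list, with filled points for an FDR under 0.05. A gene of more than 1 list is drawn once. The 3 members lie to the left of 0, as do *Ankrd1*, *Tgfb2* and all TGF-beta target genes drawn except *Col3a1*, whereas *Sdc4*, *Smad3* and all IGF binding proteins except *Igfbp7* lie to the right.

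Markers of other cell types also differed between the groups. The 3 pericyte and smooth muscle markers with a symbol, of 11 listed, summed to 64.0 to 192 CPM over the gmASTR libraries and 424 to 1142 CPM over the wmASTR libraries, and none was at 0 in all libraries of a group. Of these, *Myh11*, the smooth muscle myosin, had 96.0 ± 55.1 and 489 ± 127 CPM (SD, n = 6, log2FC -2.40, FDR = 0.000152), and *Cspg4* 22.1 ± 9.26 and 78.9 ± 64.1 CPM (log2FC -1.92, FDR = 0.00577). The highest sum, 1142 CPM, was that of wmASTR replicate 4, which also had the highest *Ctgf* and the highest *Nov*, and the other wmASTR libraries summed to 424 to 589 CPM. The 6 microglial markers with a symbol, of 11, summed to 5.99 to 60.8 and 93.5 to 306 CPM, with the highest sum again in replicate 4. Both that were tested were higher in wmASTRs, the complement genes *C1qa* (21.3 ± 15.7 and 99.0 ± 56.3 CPM, log2FC -2.28, FDR = 0.00257) and *C1qb* (1.23 ± 0.979 and 8.15 ± 7.52 CPM, log2FC -2.77, FDR = 0.0114). The 4 endothelial markers of 12 summed to 16.4 to 77.3 and 38.9 to 316 CPM, and 1 of 3 tested was called. This was *Esam*, an adhesion molecule, with 8.87 ± 3.55 and 107 ± 119 CPM (log2FC -3.67, FDR = 0.000750), whereas *Slco1a4* (log2FC 0.69, FDR = 0.484) and *Egfl7* (log2FC -0.46, FDR = 0.601) did not pass. The 4 oligodendrocyte lineage markers of 11 were divided. The myelin genes *Mbp* (0.713 ± 1.29 and 16.5 ± 8.72 CPM) and *Mag* (0.109 ± 0.201 and 4.03 ± 3.41 CPM), outside the filtered table and named after their values were seen, had all wmASTR libraries above all gmASTR libraries. *Myrf*, the myelin regulatory factor and the 1 marker tested, was higher in gmASTRs with 12.3 ± 6.65 and 2.79 ± 1.51 CPM (log2FC 2.05, FDR = 0.0165). The part of these cells in the levels of the CCN genes was not tested.

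Of 8 leptomeningeal markers tested, 4 were called higher in gmASTRs, 1 was called higher in wmASTRs and 3 did not pass, in a set of named genes that leans to gmASTRs as given above. *Cldn11*, a tight junction protein, had 1842 ± 1433 and 27.5 ± 27.9 CPM (SD, n = 6, log2FC 5.98, FDR = 6.40e-05), and *Cdh1*, which encodes E-cadherin, 886 ± 423 and 26.2 ± 43.8 CPM (log2FC 5.01, FDR = 0.000742). The transcription factor gene *Foxd1* had 343 ± 150 and 67.3 ± 29.3 CPM (log2FC 2.28, FDR = 6.01e-05). *Mgp* was called higher in wmASTRs, with 421 ± 83.1 and 1394 ± 584 CPM (log2FC -1.81, FDR = 5.25e-05). *Ptgds*, outside the filtered table and named after its values were seen, had 1.00 ± 1.41 and 9.09 ± 9.01 CPM. The 9 markers with a symbol, of 15, summed to 1153 to 6617 and 1363 to 2732 CPM. In wmASTRs the largest part of the sum was on average *Mgp*, the marker called in the other direction. The sums of the groups are therefore made up of different genes. The lowest gmASTR sum, 1153 CPM, was that of replicate 5, which had the lowest *Nov* and the highest *Ctgf* of the gmASTR libraries, and the other 5 gmASTR libraries summed to 2833 to 6617 CPM. The highest gmASTR sum was that of replicate 4, which had the highest *Nov* and the lowest *Ctgf*. The part of these cells in the levels of *Nov* and *Ctgf* was likewise not tested. The 8 ASTR markers with a symbol, of 15, summed to 7337 to 10990 and 8738 to 10977 CPM, with *Gfap* at 0 in all gmASTR libraries. These sums rested mainly on *Gja1*, *Vim* and *Mfge8*, while the means of *Aqp4* were 0.200 and 3.69 CPM. Similar sums therefore do not show similar levels of each marker. The abundant *Gja1* and *Vim* did not pass the test (log2FC 0.08, FDR = 0.835, and log2FC 0.23, FDR = 0.0987), nor did *Apoe* (log2FC -0.44, FDR = 0.353). All gmASTR libraries of *Vim* (2590 to 3274 CPM) nevertheless lay above all its wmASTR libraries (2171 to 2439 CPM). *Mfge8* (640 to 1324 and 1562 to 4617 CPM, log2FC -1.63, FDR = 0.000691) and the glutamate transporter gene *Slc1a3* (8.21 ± 4.03 and 21.3 ± 8.46 CPM, log2FC -1.43, FDR = 0.0158) were higher in wmASTRs.

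The direction and call of each member held when any single library was left out and under each other test, scaling and gene filter that was run. The log2FC of *Ctgf* lay between -1.89 and -1.63 with 1 library left out and that of *Cyr61* between -1.38 and -1.12. That of *Nov* lay between -1.45 and -1.09. The value nearest to 0 of any setting and member was that of *Nov* with gmASTR replicate 5 and wmASTR replicate 4 both left out, -0.87.

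**Figure D5:**
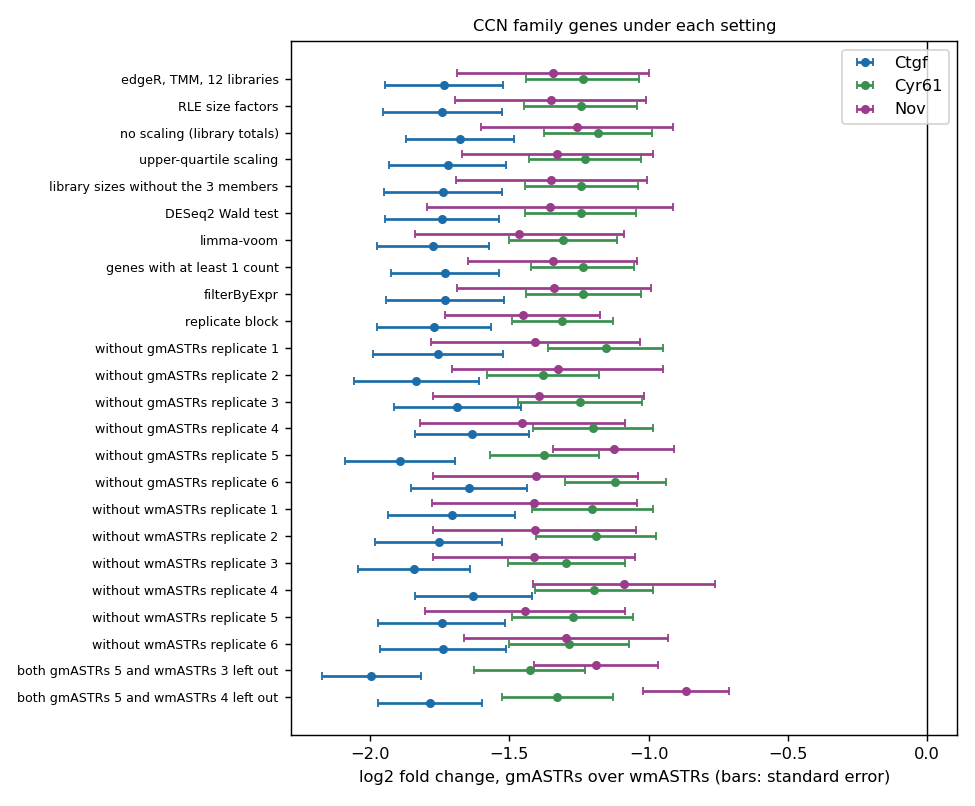
Log2 fold change of gmASTRs over wmASTRs with its standard error for *Ctgf*, *Cyr61* and *Nov* under each test, scaling, gene filter and set of libraries. Every point lies to the left of 0, and *Nov* has the widest bars in most settings and moves most when gmASTR replicate 5 and wmASTR replicate 4 are left out.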

How the data were processed

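Untreated gmASTRs and wmASTRs, 6 cultures each, were compared. The authors made 3′ mRNA libraries (molecular identifiers are not mentioned), mapped them with HISAT (0.1.5), used SAMtools (1.2) for sorting, and counted reads per Ensembl gene with HTSeq (0.6.1p1) in union mode without strand, so overlapping and antisense genes cannot be told apart. The values are raw read counts, which the authors deposited for 17941 genes and, after their filter on low expression, for 9394. The labels name a mouse build although identifiers are of rat, so no coordinates were taken from the tables.

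CPM is the count per 1000000 counts of the library in the larger table. Filtered counts were scaled by TMM and tested with edgeR (4.0.16, R 4.3.3) by the quasi-likelihood test, gmASTRs against wmASTRs with no covariate. The p-values were Benjamini-Hochberg adjusted over 9394 genes. Every FDR in the text comes from this test unless another fit is named. The procedure was tested on simulated data. Alternatives used limma (3.58.1), DESeq2 (1.42.0), other scalings, gene filters and sets of libraries. Ratios took count + 0.5 and were tested, like correlations, by exact two-sided permutation. These steps ran in Python (3.11.15) with scipy (1.17.1), pandas (2.3.3), numpy (2.4.6) and, for figures, matplotlib (3.10.9). Replicates are separate culture preparations. Floors of 3 counts cover counting error only.

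Symbols came from the study's supplement, 2010 beside an identifier and 77 joined by 12 matching values within 0.5 counts, of which 1585 are in the filtered table. The supplement's fold changes were not used. Of the members, *Ctgf* and *Cyr61* matched a RefSeq promoter (Ccn2, Ccn1). Genes named are the members, up to 4 genes per list with the smallest FDR, the 5 named genes most like each member, and 4 ASTR markers. List genes beyond these (*Rbms3*, *Tgfb1*, *Tgfbr2*, *Col3a1*, *Yap1*, *Mbp*, *Mag*, *Ptgds*) were named after their values were seen. 1 gene of a pathway list was left out of the counts and is not reported here. Members, lists and tests were chosen with earlier results of these data known.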

Additional observations from a re-analysis of the deposited data

Results flagged for a closer look

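In 12 sets of 6 libraries (the levels of *Ctgf*, *Cyr61* and *Nov* and the 3 ratios between them, each in gmASTRs and wmASTRs), the highest and lowest library were compared with the rest by Dixon's ratio, of which chance picks out about 1 in 20 sets. A library stood far from the others in 3 sets, all in gmASTRs and all through replicate 5. *Nov* was lowest there, at 10.6 CPM (56 counts), with a gap of 0.627 of the whole range, just past the critical value for 6 libraries. The ratio of *Ctgf* to *Nov* was highest there, at 471 (gap 0.895), and so was that of *Cyr61* to *Nov*, at 86.3 (gap 0.874). These gaps are of the ratios before taking logs, which spreads out high values, whereas the tests above used log2 ratios. These 3 values rest on the same low count of *Nov* and are not separate signs. The same library had the highest *Ctgf* of the gmASTRs, 5042 CPM, the lowest summed leptomeningeal markers, 1153 CPM, and the lowest summed oligodendrocyte lineage markers, 0.947 CPM. Its total of 5277711 counts lay within the range of the other libraries.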

How the results depend on the processing

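The levels of *Ctgf*, *Cyr61* and *Nov* kept their direction and their FDR under 0.05 in all 12 fits with 1 library left out and in all 11 other fits. Their log2FC values lay between -1.89 and -1.63, -1.38 and -1.12, and -1.45 and -1.09 with 1 library left out. In the other fits the values nearest to 0 were -1.68, -1.18 and -0.87. The ratio of *Cyr61* to *Nov* turned direction whenever gmASTR replicate 5 was left out: the log2 difference was -0.40 without it (adjusted p = 0.301), -0.40 (adjusted p = 0.357) with wmASTR replicate 3 also left out, and -0.55 (adjusted p = 0.183) with wmASTR replicate 4 also left out. With 1 library left out it ranged from -0.40 to 0.46, and that of *Ctgf* to *Nov* from -0.88 to -0.00041. That of *Ctgf* to *Cyr61* ranged from -0.59 to -0.37 and passed the threshold only without gmASTR replicate 1 (-0.59, adjusted p = 0.0455).

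The number of genes called at an FDR under 0.05 was 1158, and 883 to 1569 with 1 library left out (1569 without gmASTR replicate 5) and 970 to 1442 otherwise. At an FDR under 0.01 it was 553, against 857 with DESeq2 and 861 without gmASTR replicate 5. Without scaling, the median log2FC of all genes rose from 0.02 to 0.09 and the calls split into 691 higher in gmASTRs and 533 in wmASTRs, against 530 and 628. Same-numbered libraries did not deviate together (correlations -0.113 to 0.0552, with 1 of 6 closest to its own number), so what the numbers mark stays unknown. With the replicate number as a block, *Ctgf*, *Cyr61* and *Nov* had log2FC values of -1.77 (FDR = 0.000385), -1.31 (FDR = 0.00114) and -1.45 (FDR = 0.00611), 970 genes were called, and the adjusted p of the ratios was 0.188, 0.844 and 0.844. Counts of called list genes moved by over 1.5 times, each by 1 gene, in 9 of 80 comparisons.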
